A study of Mus musculus with 18 samples.

Results

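The cytosolic ribosomal protein (RP) genes were examined in left ventricular RNA from mice with heart failure driven by Gαq. Members were the protein-coding genes whose symbol is Rpl, Rps or Rplp followed by a number, with an optional letter or paralog ending, and whose mean raw count over the 18 libraries was at least 10. Of 55450 gene IDs in the count table, 80 protein-coding genes matched by symbol and 76 passed the minimum, 46 of the large subunit and 30 of the small subunit. The 4 genes under the minimum were Rpl36al (mean 6.11 counts), Rpl24 (6), Rpl39l (2.17) and Rpl10l (0), and the members just above it were Rpl29 (15.2) and Rpl23a (15.9). All 76 members passed the low-count filter of the tests below.

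The animals were male FVB/N mice that overexpressed the heterotrimeric G protein subunit Gαq (gene Gnaq) only in the heart, and their wild-type (WT) littermates. The promoter of the transgene is not given in the sources used here. From 4 weeks of age both genotypes were fed for 16 weeks either a control diet (CD) or chow with ertugliflozin (ERTU), an inhibitor of the renal glucose transporter SGLT2, at 0.5 mg/g, and hearts were taken at 20 weeks. The libraries were 4 of WT CD, 5 of WT ERTU, 5 of Gαq CD and 4 of Gαq ERTU, each from bulk left ventricle of a separate mouse, so that fewer cells of a type and less RNA per cell cannot be told apart. Libraries held 15383566 to 20908363 counts, and Gnaq ranged from 45.5 to 230 CPM (counts scaled to a common library total of 1e6) in WT libraries. In Gαq CD it was at 1641 to 11672 CPM, mean 7473 ± 3818 (SD, n = 5), and in Gαq ERTU at 2236 to 5207 CPM, mean 3216 ± 1371 (SD, n = 4). The lower mean on ERTU was not called (log2 fold change -1.22 ± 0.52 SE, edgeR adjusted p = 0.653), and its part in the comparisons that use Gαq ERTU was not tested. Libraries are named here by the number in the count table.

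Ribosomal proteins coat the ribosomal RNA of the small and large subunits. Their genes are transcribed at a high rate in nearly every cell, and their mRNAs carry a tract of pyrimidines at the 5′ end, the TOP motif, through which mTORC1 and the binding protein LARP1 set their translation together. Mammalian genomes hold very many intronless copies of RP mRNAs, the processed pseudogenes, and a few working paralogs with restricted expression. Rpl3l is the paralog made in heart and skeletal muscle, and it stands in for Rpl3, a large subunit protein that reaches towards the catalytic centre of the ribosome.

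The sequences below show how alike an RP gene and its copy can be, beside a paralog that differs. Only exon junctions at which the copy holds the same 60 bases were considered, 7 for Rpl3 and 1 for Rps27. Identity of gene and copy within the windows was thus a condition of choice, and identity over the whole coding sequence is given after them. The set compares 60 coding bases of Rpl3, centred on the junction between a pair of exons, with the same bases of Rpl3-ps1, a processed pseudogene on chromosome X, and of Rpl3l, read 5′ to 3′ from the GENCODE transcripts of build GRCm38. Capitals mark the 25 positions at which Rpl3 and Rpl3l differ. Rpl3 lies at chr15:80077791-80091868 (minus strand), and the bases shown are chr15:80082390-80082419 followed by chr15:80081754-80081783. Rpl3-ps1 lies at chrX:13202571-13203780 (plus strand), and the bases shown are chrX:13202738-13202797. Rpl3l lies at chr17:24727820-24736143 (plus strand), and coding bases 167 to 226 are shown.
Rpl3: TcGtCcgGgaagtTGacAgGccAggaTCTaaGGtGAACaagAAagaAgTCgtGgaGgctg
Rpl3-ps1: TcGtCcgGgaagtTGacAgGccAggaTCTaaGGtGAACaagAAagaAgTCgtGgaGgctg
Rpl3l: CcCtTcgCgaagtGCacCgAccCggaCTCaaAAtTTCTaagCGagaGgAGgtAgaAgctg

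Over the whole coding sequence, 1207 of the 1209 aligned bases of Rpl3 and Rpl3-ps1 were identical (99.8%), and 91.1% of the 50-base words of Rpl3 were found in Rpl3-ps1. Rpl3 and Rpl3l shared 74.4% of 1208 aligned bases and no 50-base word. Rps27 and its paralog Rps27l gave the same picture. Rps27 (chr3:90212522-90213651, minus strand) was identical over all 255 coding bases to Rps27rt, an annotated intronless gene on chromosome 9, and shared 76.1% with Rps27l (chr9:66946086-66949516, plus strand). Coding bases 86 to 145 are shown for Rps27 and Rps27l, with the matching bases chr9:114982563-114982622 (minus strand) of Rps27rt, and capitals again mark where gene and paralog differ.
Rps27: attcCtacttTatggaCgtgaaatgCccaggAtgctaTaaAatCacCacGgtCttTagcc
Rps27rt: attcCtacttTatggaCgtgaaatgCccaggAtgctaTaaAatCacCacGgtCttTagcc
Rps27l: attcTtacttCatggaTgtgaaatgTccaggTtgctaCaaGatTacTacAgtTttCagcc

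The TOP motif was looked for at annotated RefSeq starts (GRCm38.p6), as a C at the start base followed by at least 4 bases that are each C or T, on the coding strand only. Of 68 starts listed for 56 of the members, 13 (19.1%) began in this way, against 2.51% of the 32851 starts of all genes. Within 5 bases of the annotated start the tract was found at 44.1% of the members' starts and 18.3% of all starts. The windows below run from 10 bases before the start and show the tract in capitals for 4 of the members with a tract (48.9 to 308 CPM per kilobase in these data), and the start of Rpl3l for comparison. They come from chr2:180257369-180257398 (Rps21, plus), chr9:120571507-120571536 (Rpl14, plus), chr7:141447641-141447670 (Rplp2, plus), chr2:39005112-39005141 (Rpl35, minus) and chr17:24727816-24727845 (Rpl3l, plus).
Rps21: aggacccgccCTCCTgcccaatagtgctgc
Rpl14: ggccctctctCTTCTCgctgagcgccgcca
Rplp2: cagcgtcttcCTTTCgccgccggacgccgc
Rpl35: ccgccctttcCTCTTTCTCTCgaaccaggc
Rpl3l: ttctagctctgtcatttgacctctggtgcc
The annotated start of Rpl3l is a G, and no tract begins there.

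RP transcripts are among the most abundant in any tissue, but here the members received a mean of 138933 counts per library, between 0.544% and 0.992% of a library's total. The deposited table counted only read pairs that aligned to a single place. Sequence copies, defined here as annotated genes that hold at least 25% of the 50-base coding words of a member, were found for 64 of the 76 members, 352 copies in all, of which 342 are annotated as pseudogenes. The copies received a further 131442 counts per library, 48.6% of the sum of members and copies. At 45 members the copies held more counts than the gene.

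Rpl3, for example, held a mean of 86.7 counts per library where Rpl3-ps1 held 3821. Rpl23 had the copy with the most counts of all, Gm9794 at 6130. Rps6, the substrate of S6 kinase, held 87.8 counts and Rps6-ps4 held 3279. Rps27 held 26.6 counts and Rps27rt held 2675. For Rpl3, Rps6 and Rps27 nearly the whole signal of the pair lay at the copy. Whether the RNA counted at a copy was made from the copy or from the gene was not tested.

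The level per length, in CPM per kilobase of the longest principal coding transcript, followed this repetition. Over the 13 members with less than 50% of their coding words repeated in another gene, the median level was 308 CPM per kilobase (range 15.5 to 596). Over the 27 members with all words repeated, it was 9.59 CPM per kilobase (range 1.56 to 313). Across the 76 genes Spearman's rho between the repeated share and the level was -0.63, and -0.33 once the counts of the copies were added to each gene. Copies are defined by shared words, so their counts could be added only to genes with repeated words. The move of rho towards 0 was thus in part set by the definition. Genes are not independent replicates, and no test was made.

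**Figure D1:**
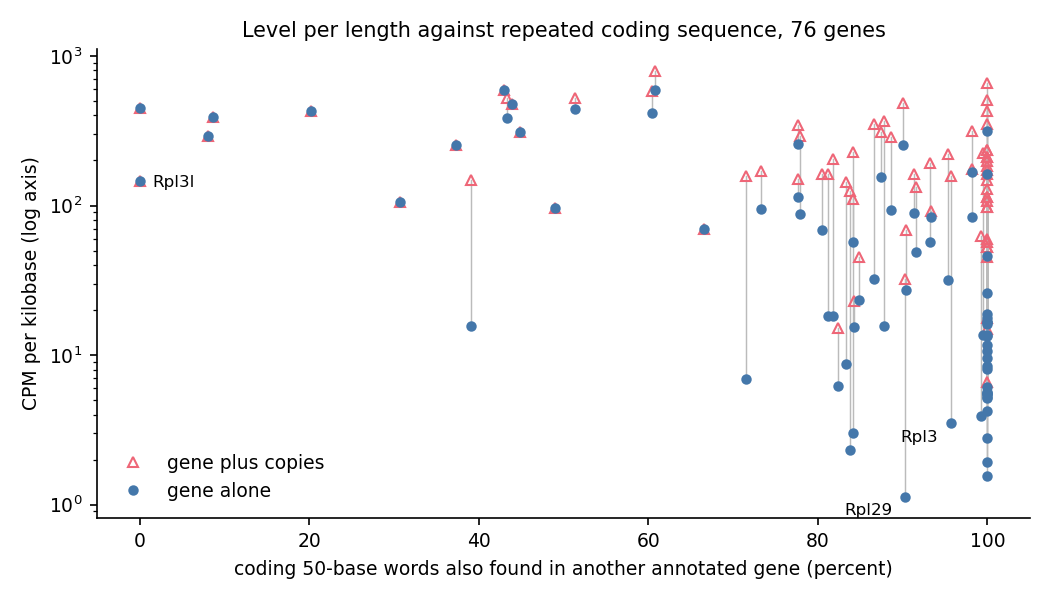
Level per length (CPM per kilobase of the principal transcript, log axis) of the 76 RP genes against the percent of their coding 50-base words found in another annotated gene. Filled circles are the gene alone, open triangles the gene plus its sequence copies, and grey lines join both values of a gene. Most genes with low levels sit at the right, where words are repeated, and rise when copies are added, while Rpl3l, at 0% repeated, has the same value either way.

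Among the members with the highest level per length were Rps15 (596 CPM per kilobase), Rplp1 (594) and Rps14 (439). Rplp1 is an acidic protein of the stalk that recruits elongation factors. The lowest were Rpl29 (1.13), Rpl23a (1.56), Rpl17 (1.93), Rps10 (2.31) and Rps23 (2.80), with 83.7% to 100% of their coding words repeated elsewhere. In addition, annotated exons of RPS10-NUDT3 on the same strand cover 53.6% of the exon bases of Rps10. Those of Tlcd1 on the opposite strand cover 55.4% of Rpl23a. The highest level was 526 times the lowest. Of the 5 highest and the 5 lowest, 3 each kept that place when merged exons or the coding sequence were used as the length. The interquartile range of the levels was 3.87 on the log2 scale and 1.58 with the copies added.

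The share of a library's counts that fell on the 76 members had a mean of 0.719% ± 0.055 (SD, n = 4) in WT CD and 0.776% ± 0.131 (SD, n = 5) in Gαq CD. The ERTU means were 0.737% ± 0.149 (SD, n = 5) in WT and 0.823% ± 0.195 (SD, n = 4) in Gαq. The ranges of all 4 groups overlapped, and that of Gαq ERTU (0.544% to 0.992%) contained the other 3.

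Libraries differed in RP level within every group, and the members moved together. Set against the WT CD mean, the median member was higher by 0.48 on the log2 scale in Gαq ERTU library 16, where 74 of 76 members were above that mean, and lower by 0.29 in Gαq ERTU library 17 (median -0.29), where 11 were above. WT ERTU spanned medians from -0.26 in library 15 to 0.35 in library 14, and Gαq CD from -0.17 in library 9 to 0.35 in library 10. The 4 WT CD libraries were closer together, from -0.08 to 0.12. Each of the 4 groups thus held libraries above and below the WT CD mean.

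The spread of a member was taken as the SD of log2 CPM about its group mean, with 14 degrees of freedom. The median over members was 0.28 and became 0.14 after each library's median member deviation was subtracted. Among the 33 members with at least 1000 mean counts it went from 0.28 to 0.09, and the 3354 other genes with such counts had a median SD of 0.17 before any subtraction. Rpl7a (0.17), Rpl4 (0.18) and Rpl5 (0.18) varied least. Rps27 (0.78), Rps12 (0.44) and Rpl37 (0.42) varied most. Rps27 received 3 to 45 counts per library, and counting error alone would give an SD of about 0.28 at its mean.

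Some other measures differed in the same or the opposite order between the libraries with the highest and the lowest RP level, Gαq ERTU 16 and 17. The summed level of the snoRNA and TOP host genes, a list that includes noncoding hosts whose transcripts also begin with a pyrimidine tract, was 1422 CPM in library 16 and 833 CPM in library 17. The 5 listed RP genes or ribosome components that the symbol rule leaves out, Rpsa, Fau, Rps3a1 and Rack1 among them, summed to 979 CPM in library 16 and 560 CPM in library 17. Rack1 is in both lists, at 323 to 531 CPM over the Gαq ERTU libraries, and takes up a large part of both sums. The sums are therefore not independent. The host list also holds the coding genes Eef1b2, Nop56 and Tpt1. The 10 cardiomyocyte markers summed to 81694 CPM and 101038 CPM in the same pair, the opposite order. The median of 2580 other coding genes with transcripts of at least 4707 bases was -0.26 in library 16 and 0.07 in library 17, and that of 2580 genes of at most 2034 bases was 0.17 and -0.11. This did not hold in every library: in Gαq CD library 7, where the RP median was 0.11, the long genes were at 0.03 and the short genes at -0.07. The part of transcript length and cell makeup in the RP levels was not tested.

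**Figure D2:**
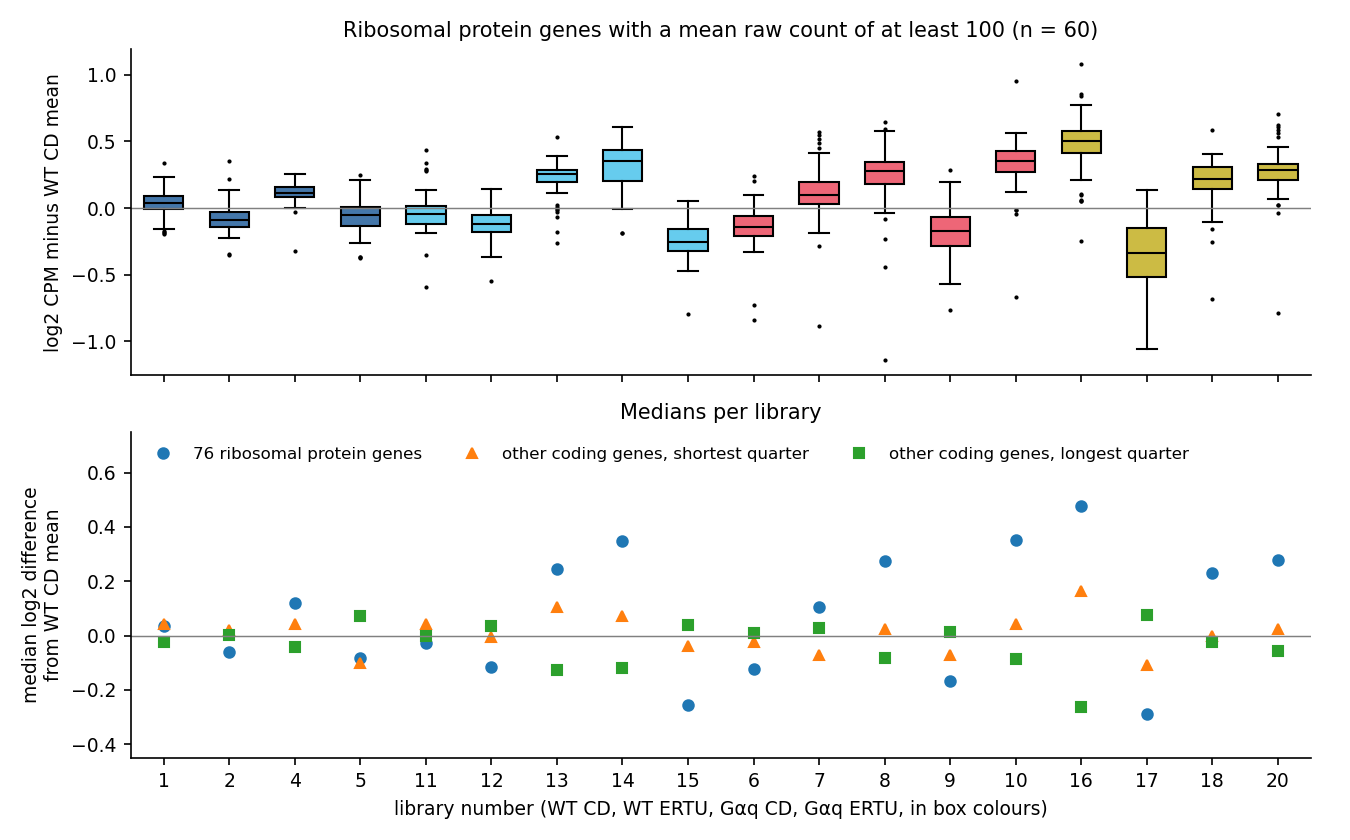
Upper panel: log2 CPM minus the WT CD mean for the RP genes with at least 100 mean counts, as 1 box per library (box, quartiles and median; whiskers, 1.5 times the interquartile range), coloured by group. Lower panel: median log2 difference from the WT CD mean of all 76 RP genes (circles) and of the shortest (triangles) and longest (squares) other coding genes. Whole boxes shift between libraries of the same group, from -0.29 in library 17 to 0.48 in library 16 for the median of all 76 genes, both Gαq ERTU.

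The effect of Gαq was tested first with genotype and diet as additive terms over all 18 libraries (edgeR quasi-likelihood test, Benjamini-Hochberg adjustment over 16270 genes, threshold 0.05). Rpl3l fell, and Rpl13a and Rpl27a rose, while 73 of the 76 members were not called. Among all genes tested, 9.72% were called higher and 9.92% lower by genotype (19.6% in all), beside 2 and 1 of the 76 members. At an unadjusted p of 0.05, 10 members passed, beside 31.9% of all genes. The fitted log2 fold change was above 0 for 71 of 76 members, against 50.6% of all genes, with a median of 0.12 against 0.004. Members moved together from library to library, so these 76 values are not independent, and their number was not tested. Leaving out WT ERTU library 14, the WT library with the highest RP level, brought the members called higher from 2 to 7. Without Gαq ERTU library 17 they were 5. Over all 18 leave-outs, 2 to 8 members were called in either direction. The median over members ranged from 0.08 without Gαq ERTU library 16 to 0.19 without Gαq ERTU library 17.

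Rpl13a, a large subunit protein also known for silencing inflammatory mRNAs, was at 14.9, 11.9, 14.6 and 12.3 CPM in WT CD and at 15.7, 18.7, 20.0, 16.3 and 18.5 CPM in Gαq CD. On ERTU it was at 11.4 to 18.6 CPM (median 16.2) in WT and 14.6 to 20.2 CPM (median 19.2) in Gαq. The groups did not overlap on the control diet and overlapped on ERTU. By genotype the log2 fold change was 0.33 ± 0.10 (SE, adjusted p = 0.0166). Annotated exons of Gm45713 on the same strand cover 59.3% of its exon bases, so reads there cannot be assigned to either gene with certainty.

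Rpl27a, a large subunit protein, was at 19.6, 20.8, 21 and 16.1 CPM in WT CD and at 19.2, 28.6, 29, 18.4 and 22.9 CPM in Gαq CD. In the ERTU groups it was at 14.6 to 21.3 CPM in WT and 16.8 to 26.3 CPM in Gαq. Both pairs of groups overlapped, and the log2 fold change by genotype was 0.35 ± 0.11 (SE, edgeR adjusted p = 0.0265). Neither call was kept when counts of sequence copies were added to the gene (edgeR adjusted p = 0.196 for Rpl13a and 0.228 for Rpl27a). That of Rpl27a was also lost on leaving out 6 of the 18 libraries in turn, namely WT CD 5, Gαq CD 7 or 8, or Gαq ERTU 16, 18 or 20.

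**Figure D3:**
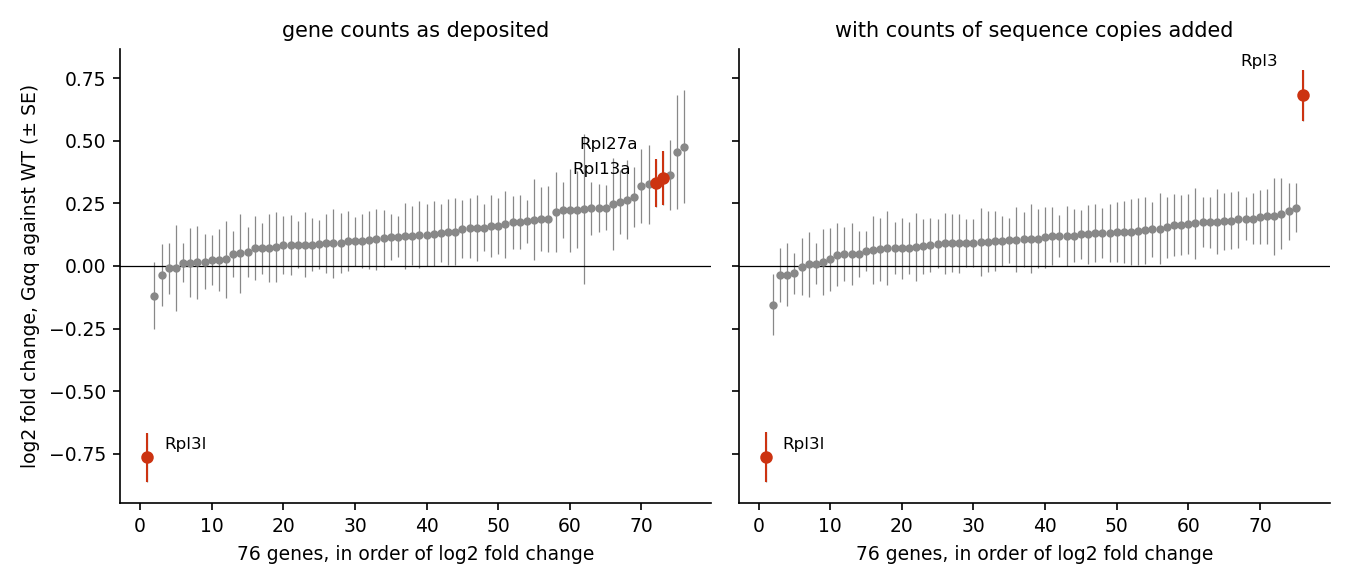
Log2 fold change of Gαq against WT (± SE, additive model over 18 libraries) of the 76 RP genes in rank order, from the deposited gene counts (left) and after the counts of sequence copies were added to each gene (right). Red points passed an adjusted p of 0.05: Rpl3l at -0.76, Rpl13a at 0.33 and Rpl27a at 0.35 on the left, Rpl3l at -0.76 and Rpl3 at 0.68 on the right. The highest value on the left, 0.48, has a wide error and was not called.

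Rpl3l had the largest fitted change of the 76 members by genotype. It was at 272, 286, 247 and 189 CPM in WT CD and at 137, 133, 111, 145 and 155 CPM in Gαq CD. The mean over WT was 249 ± 42.8 (SD, n = 4), that over Gαq 136 ± 16.2 (SD, n = 5). Every Gαq library on control diet lay below every WT library. On ERTU it was at 310, 254, 265, 216 and 232 CPM in WT and at 206, 145, 153 and 142 CPM in Gαq. The groups again did not overlap, although Gαq ERTU library 16 came close to the lowest WT library.

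On the control diet Rpl3l was 1.83-fold lower in Gαq (log2 fold change -0.87 ± 0.14 SE, adjusted p = 0.000444, edgeR). On ERTU it was 1.58-fold lower (-0.66 ± 0.14 SE, adjusted p = 0.0052, edgeR), and over both diets 1.70-fold lower (-0.76 ± 0.10 SE, adjusted p = 1.08e-05, edgeR). It was the only member called in either genotype comparison within a diet, where 4% and 3.93% of all genes were called higher and 4.1% and 4.24% lower, on CD and ERTU in turn (8.1% and 8.17% in all). At an unadjusted p of 0.05, 4 and 5 members passed, beside 21% and 21.7% of all genes. Of the other members, only Rpl13a on the control diet had groups that did not overlap. Among all genes tested, groups did not overlap at 4.7% higher and 4.6% lower on CD, and 5.4% higher and 5.49% lower on ERTU.

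Rpl3l has no copy in the annotation that shares a coding word, and its log2 fold change was called under each of 26 alternatives in all 3 genotype comparisons. Cardiomyocyte markers moved with genotype too: of 10 tested, 1 (Mybpc3, 0.42 ± 0.11) rose and 4 fell, among them Ryr2 (-0.82 ± 0.15), with a median of -0.14 on the log2 scale, and their summed level was 79264 to 110262 CPM in WT CD and 72375 to 97698 CPM in Gαq CD. Set against the mean log2 level of these markers in the same library, the log2 level of Rpl3l differed by -0.70 between Gαq and WT on CD, where the groups did not overlap, and by -0.53 on ERTU, where they did. Fibroblast markers rose (7 of 10, none fell), from 1728 to 3357 CPM summed in WT CD and 3163 to 4692 CPM in Gαq CD. The part of cardiomyocyte and fibroblast content in the change of Rpl3l was not tested.

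Rpl3 itself, at the gene, was low and uncalled. It was at 6.17, 4.96, 4.28 and 3.01 CPM in WT CD and at 4.49, 6.10, 5.40, 4.41 and 6.05 CPM in Gαq CD, from 44 to 129 counts per library over all groups. The log2 fold change by genotype was 0.23 ± 0.15 (SE, edgeR adjusted p = 0.343). The groups overlapped on both diets.

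The counts at Rpl3-ps1 were in the range of a working RP gene and differed by genotype. They were 177, 135, 169 and 157 CPM in WT CD and 219, 247, 295, 224 and 286 CPM in Gαq CD, so that the groups did not overlap. On ERTU they were 140, 140, 165, 216 and 127 CPM in WT and 294, 199, 267 and 271 CPM in Gαq, where WT library 14 lay above Gαq library 17. Rpl3-ps1 rose by genotype with a log2 fold change of 0.69 ± 0.10 (SE, edgeR adjusted p = 5.18e-05). Of the 12 copies with the most counts over all members, it was the only one called by genotype.

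With its 5 sequence copies added, the CPM of Rpl3 on the control diet was 164 ± 18.8 in WT (SD, n = 4) and 260 ± 35.9 in Gαq (SD, n = 5). Fed ERTU, WT reached 162 ± 35.1 (SD, n = 5) and Gαq 264 ± 42.4 (SD, n = 4). The groups did not overlap on CD, and on ERTU WT library 14 (220 CPM) lay above Gαq library 17 (203 CPM). The log2 fold change was 0.66 ± 0.15 on CD (SE, edgeR adjusted p = 0.00796), 0.70 ± 0.15 on ERTU (SE, edgeR adjusted p = 0.00427) and 0.68 ± 0.10 by genotype (SE, edgeR adjusted p = 5.39e-05). In this fit Rpl3 was the only member called higher and Rpl3l the only one called lower in each of the 3 comparisons. The same calls of Rpl3 followed when only pseudogenes named after a member were added. Rpl3-ps1 is added in both settings and holds most of the counts, so the second adds no separate support. With copies counted, then, the sum of Rpl3 and its copies rose while Rpl3l fell. The median of all members by genotype was 0.11 with copies and 0.12 without. That sum lay nearly all at Rpl3-ps1 (177 of 184 CPM in WT CD library 1), and Rpl3 at the gene alone was not called.

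**Figure D4:**
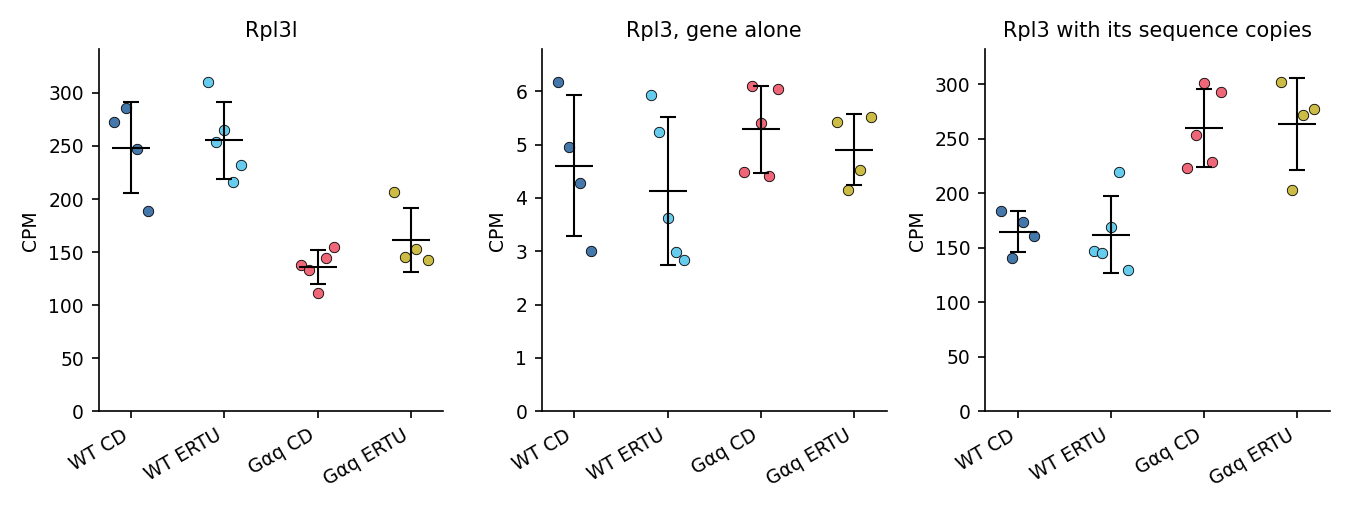
CPM of Rpl3l, of Rpl3 at the gene alone and of Rpl3 with the counts of its 5 sequence copies added, in each library (points) of the 4 groups, with mean and SD (bars). Axes start at 0 and differ between panels. Rpl3l is lower in both Gαq groups (136 and 162 against 249 and 255 CPM), Rpl3 alone stays between 2.83 and 6.17 CPM, and Rpl3 with copies is higher in both Gαq groups (260 and 264 against 164 and 162 CPM).

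The ratio of paralog to parent within a library depends on how libraries are scaled only through the prior count of 2. That prior matters most for genes with few counts. The log2 ratio of Rpl3l to Rpl3 was 5.44 to 5.92 in WT CD and 4.33 to 5.00 in Gαq CD, and on ERTU it was 5.57 to 6.30 in WT and 5.05 to 5.22, with 4.66 in library 20, in Gαq. The groups did not overlap on either diet. The difference was -1.09 on CD and -0.96 on ERTU (exact 2-sided permutation p = 0.00794 for each, the smallest that 4 against 5 libraries allow, and 0.0635 after adjustment over the 16 tests of 4 pairs). With the copies added the difference was -1.51 on CD (exact permutation p = 0.00794) and -1.37 on ERTU (p = 0.0159), and the sign of the ratio turned, from 0.58 in WT CD to -0.93 in Gαq CD and from 0.67 in WT ERTU to -0.70 in Gαq ERTU. These counts are not scaled to length.

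No pair of paralogs, Rpl3l and Rpl3 included, passed 0.05 after adjustment in any of the 4 comparisons. For Rpl3l and Rpl3 both genotype comparisons were already at the smallest exact permutation p, 0.00794, which the adjustment over 16 tests brought to 0.0635. A pair separated in only these comparisons could therefore not pass, and the lack of a pass is no sign of equal ratios. The log2 ratio of Rps27l, a paralog known as a target of p53, to Rps27 differed by 0.14 by genotype on CD (exact permutation p = 0.77) and by -0.60 on ERTU (exact permutation p = 0.452), and rested on few counts of Rps27. With Rps27rt and other copies added, it was lower on ERTU than on CD in Gαq by 0.42 (difference -0.42, exact permutation p = 0.0159, adjusted 0.0635). Rpl22l1, the paralog of Rpl22 that lies outside the symbol rule, had a log2 ratio to Rpl22 that differed by -0.36 on CD (exact permutation p = 0.0794) and by -0.40 on ERTU (exact permutation p = 0.206). Rpl22 has no sequence copy, and with Gm15421, a copy of Rpl22l1, added to the paralog, the groups did not overlap on CD (difference -0.35, exact permutation p = 0.00794, adjusted 0.0635). For Rpl7l1, a nucleolar relative of Rpl7, the differences were -0.03 (exact permutation p = 0.857) and -0.32 (exact permutation p = 0.246).

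Of the remaining paralogs, Rpl10l, which replaces Rpl10 in male germ cells, had 0 counts in all 18 libraries. Rpl39l, another gene of male germ cells, was at 0 to 0.60 CPM, and Rpl36al at 0 to 0.64 CPM. For Rpl36al, 81.6% of the coding words are repeated elsewhere and Gm49383 covers 26.0% of its exon bases on the same strand. Its low count is therefore not a measure of its expression. Their parents were measured (Rpl10 at a mean of 167 counts, Rpl39 at 644, Rpl36a at 85.1), and none of these was called by genotype. Rpl24 was at 0.09 to 0.68 CPM, with 71.5% of its exon bases under Gm28037 on the same strand.

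The stalk proteins, which carry the factor-binding site of the large subunit, give a view of members with many counts. Rplp0, the base of the stalk, was at 571, 512, 578 and 478 CPM in WT CD and at 505, 547, 603, 489 and 664 CPM in Gαq CD. On ERTU it was at 447 to 642 CPM in WT and 430 to 701 CPM in Gαq, the widest range, again set by libraries 17 and 16. By genotype its log2 fold change was 0.09 ± 0.09, that of Rplp1 was 0.10 ± 0.12 and that of Rplp2 was -0.04 ± 0.12 (SE, edgeR adjusted p = 0.582, 0.589 and 0.874). The groups overlapped for all 3 genes on both diets.

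Of the 5 ribosomal genes that the symbol rule leaves out, none was called by genotype, where the log2 fold change was 0.06 ± 0.10 for Rpsa, 0.05 ± 0.10 for Fau and 0.17 ± 0.14 for Rps3a1 (SE, edgeR adjusted p = 0.722, 0.753 and 0.429). Rack1, the scaffold at the head of the small subunit, was at 398 to 450 CPM in WT CD and 382 to 516 CPM in Gαq CD, and its log2 fold change was 0.07 ± 0.10 (SE, edgeR adjusted p = 0.677). Of 6 genes with RP-like names outside the rule, namely Rpl22l1, Rpl7l1, Rsl24d1, Rsl1d1, Rsl1 and Mrto4, none was called by genotype.

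The effect of ERTU was asked over both genotypes, within each genotype, and as the difference between genotypes. No member was called in any of these 4 comparisons, and none reached an unadjusted p of 0.05 (edgeR). Among all genes 0% were called for diet, for ERTU in WT and for the interaction, and 0.00615% for ERTU in Gαq, while 7.7%, 2.24%, 1.92% and 7.62% had an unadjusted p under 0.05 in turn. No member had groups that did not overlap, beside 0.326% of all genes higher and 0.43% lower for ERTU in WT, and 0.744% higher and 0.854% lower in Gαq. DESeq2 and limma voom called 0 members as well. In Gαq the 3 smallest p values were those of Rpl3l (log2 fold change 0.25 ± 0.14, edgeR adjusted p = 0.656), Rpl12 (0.27 ± 0.16, adjusted p = 0.658) and Rps16 (0.33 ± 0.19, adjusted p = 0.663).

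In WT the 3 smallest belonged to Rpl10 (-0.27 ± 0.16), Rpl17 (0.37 ± 0.23) and Rpl13a (0.19 ± 0.14), and over both genotypes to Rpl19 (0.23 ± 0.12), Rpl3l (0.14 ± 0.10) and Rps16 (0.19 ± 0.14), each as log2 fold change ± SE. For the difference between genotypes they were Rps2 (0.40 ± 0.26), Rpl17 (-0.41 ± 0.32) and Rps23 (-0.40 ± 0.31). The median over members was 0.05 for ERTU in WT and 0.08 in Gαq. Leaving out WT ERTU library 14 turned the former to -0.03, and leaving out Gαq ERTU library 16 turned the latter to -0.02, so single libraries set the direction of both. The change of Rpl3l with genotype did not differ detectably between diets (difference 0.21 ± 0.20, edgeR adjusted p = 0.9997 as an interaction).

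Genes that build the ribosome or feed it were described beside the members, as counts of called genes by genotype, to be read against the 9.72% of all genes called higher and 9.92% called lower. Of 20 genes of RNA polymerase I and rRNA transcription, 2 rose and 2 fell, close to those shares. Polr1e, a subunit found only in RNA polymerase I, rose by 1.47 ± 0.13 on the log2 scale (edgeR adjusted p = 1.06e-07), and Polr1c, shared with RNA polymerase III, rose by 0.28 ± 0.08. The large catalytic subunits Polr1a (-0.34 ± 0.10) and Polr1b (-0.35 ± 0.09) fell. Changes in opposite directions left the list with a median of 0.04.

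Of 44 small subunit assembly genes tested, 3 rose (Utp11 0.28 ± 0.09, Utp18 0.24 ± 0.07 and Imp4 0.22 ± 0.07) and 4 fell, among them the endonuclease Nob1 (-0.30 ± 0.09), which cuts the final rRNA precursor of the small subunit, Noc4l (-0.29 ± 0.09) and Tbl3 (-0.23 ± 0.07). Of 46 large subunit assembly genes, none rose and 3 fell, Rrs1 (-0.38 ± 0.08), Nol9 (-0.21 ± 0.07) and Brix1 (-0.20 ± 0.07). In both lists the counts lie at or below what the shares over all genes (9.72% and 9.92%) would give. Both lists had medians near 0 (-0.0007 each), beside 0.004 over all genes. All of these are log2 fold changes ± SE with an edgeR adjusted p under the threshold of 0.05.

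Of 40 translation initiation factors, 2 rose and 1 fell. Eif4e, the cap-binding protein, rose by 0.55 ± 0.10 on the log2 scale (edgeR adjusted p = 0.000472) and Eif3h by 0.26 ± 0.08, while Eif5a was at -0.15 ± 0.05 (adjusted p = 0.0499). Of 15 elongation and release factors only Naca, which guards nascent chains, was called (-0.37 ± 0.12). In the list of 24 mTORC1, S6 kinase and LARP1 regulators none rose and 3 fell, the kinase Mtor (-0.45 ± 0.10, edgeR adjusted p = 0.00367), its partner Rptor (-0.38 ± 0.09) and Tsc2 (-0.34 ± 0.09), which restrains the pathway. The count of 3 in 24 is near the 9.92% of all genes called lower. The median of this list was -0.16 on the log2 scale, beside 0.004 over all genes, and 4 of its 24 genes were above 0. The list as a set was not tested.

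Among 17 snoRNA and TOP host genes tested, 2 rose, Snhg18 (1.316 ± 0.182, edgeR adjusted p = 2.16e-05) and Snhg17 (0.33 ± 0.10), and none fell. Of 18 genes of ribosome stalling and surveillance, Habp4, which binds idle ribosomes, rose (0.34 ± 0.06), and 3 fell, Usp10 (-0.34 ± 0.07), which rescues stalled subunits, Gtpbp2 (-0.23 ± 0.08) and the splitting factor Hbs1l (-0.20 ± 0.05). Their medians were 0.15 and -0.11 on the log2 scale. No gene of any of these lists was called for diet.

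Markers of other cell types were looked at for the mixture in the tissue, again beside 9.72% of all genes called higher and 9.92% lower. By genotype the atrial markers had 1 gene called of 7 tested, Nppa, which rose by 5.03 ± 0.26 on the log2 scale and is also induced in failing ventricle. Endothelial markers had 3 of 10 lower and macrophage markers 1 of 10 higher. Lymphocyte markers had 2 of 5 higher at summed levels of 3.12 to 11.1 CPM. Skeletal muscle markers had 2 of 5 higher and 1 lower (Ckm), fat markers 1 of 6 lower and red blood cell markers none of 5. The fat marker called lower, Plin4 (-0.71 ± 0.18), went against its list. There 5 of 6 genes were above 0, uncalled, and the median was 0.90 on the log2 scale. No listed marker was at 0 in all libraries. Their part in the RP levels was not tested.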

How the data were processed

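RNA from 18 left ventricles was sequenced by the authors as 100-base read pairs. Per the labels and the submitters' processing notes, reads were aligned to mm10 with STAR 2.6.0c and counted with featureCounts (Subread 1.6.2); only uniquely aligned proper pairs were kept. The deposited raw count table (55450 gene IDs, 99.53% matched to GENCODE M21, GRCm38) was the main source. The deposited variance-stabilized log2 values were used once, as an alternative for paralog ratios. No per-sample column was left unmapped, but column numbers could not be tied to single samples, only to groups.

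Counts were fitted with edgeR 4.0.16 in R 4.3.3 (TMM scaling, filterByExpr over 4 groups, quasi-likelihood F test, Benjamini-Hochberg over 16270 genes, threshold 0.05). Genotype and diet came from an additive model, the 5 other comparisons from a model with a mean per group. SE was the absolute log2 fold change divided by the square root of F. CPM used TMM-scaled totals, and log2 CPM a prior count of 2. Paralog ratios were compared by exact 2-sided permutation of libraries, of which 4 against 5 gives 126 splits. The fit was tested on simulated counts with 200 changed genes.

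Repeated sequence was found by matching 50-base words of each member's coding sequence against all annotated transcripts; no genome sequence was used, so unannotated copies are not counted. Starts came from RefSeq. Protein sequences were not used here. P-values measure the spread between mice, 1 library each; levels rest on 15383566 to 20908363 counts per library, and intervals from counts cover counting error only.

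Named genes were all paralogs and RP genes outside the symbol rule, up to 10 called members per direction and comparison (else the 3 smallest p), the 5 highest and lowest by level, the 3 most and least spread, Rplp0, Rplp1 and Rplp2, the genes nearest the count minimum, and up to 3 called genes per direction in each list. Rps6, Rpl23, Rpl3-ps1 and the members lost or gained in alternatives were named as examples after their values were seen. A few genes that the rule names are not reported here. Members, lists and tests were chosen with earlier results of these data known. Alternatives were DESeq2 1.42.0 (its size factors and its Wald test), limma 3.58.1 voom, other filters, only the groups compared, named pseudogenes or sequence copies added, other lengths and prior counts, and each library left out.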

Additional observations from a re-analysis of the deposited data

Results flagged for a closer look

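Each group of 4 or 5 libraries was searched for a library far from the others, over 152 group values of named members, RP share and paralog ratios; 6 stood out, and chance gives about 1 in 20. Rpl3l was at 206 CPM in Gαq ERTU library 16 against 142 to 153 CPM in the other 3. Rps10, a small subunit protein, was at 1.16 CPM in the same library against 2.39 to 2.61 CPM. Rplp2 was at 82.7 CPM in Gαq CD library 10 against 55.9 to 58.0 CPM. Rpl17 was at 2.40 CPM in WT ERTU library 11 against 2.73 to 2.80 CPM. Rps27 was at 0.193 CPM (3 counts) in WT ERTU library 15 against 1.48 to 1.95 CPM, and for the same reason the log2 ratio of Rps27l to Rps27 was 7.21 there against 4.33 to 5.05. Libraries 16 and 10 are also those with the highest RP level in their groups, and 15 the lowest in its group. Rps10 was nevertheless low in library 16, and library 11 had neither the highest nor the lowest RP level of its group.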

How the results depend on the processing

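The fall of Rpl3l was called under all 26 alternatives in each genotype comparison, with log2 fold changes of -0.84 to -0.72 by genotype, -0.98 to -0.80 on CD and -0.80 to -0.58 on ERTU. Diet, ERTU in WT, ERTU in Gαq and the interaction had 0 members called under every alternative run. By genotype, 2 to 4 members were called over 8 alternatives and 2 to 8 on leaving out a library. On CD the count was 1, but 2 under DESeq2, with named pseudogenes or with sequence copies, and 1 to 2 on leaving out a library (2 without WT ERTU library 12). On ERTU it was 1, but 2 with named pseudogenes or sequence copies, 4 under voom, and 1 to 3 on leaving out a library (2 without WT ERTU library 14, 3 without Gαq ERTU library 17). Voom added Rpl13a, Rpl27a and Rps16; the cause was not tested. Over 1593 tested values no called value turned its sign, and 42 uncalled ones did.

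The median over members ranged on leaving out a library from 0.08 to 0.19 by genotype, 0.02 to 0.14 for diet and -0.07 to 0.17 for the interaction. The mean RP share of counts was 0.719% in WT CD, 0.737% in WT ERTU, 0.776% in Gαq CD and 0.823% in Gαq ERTU. In that order it was 0.987%, 1.01%, 1.08% and 1.14% with named pseudogenes and 1.39%, 1.42%, 1.52% and 1.61% with sequence copies, and 0.793% in WT CD with the 5 genes outside the rule. By level per length, 3 of the 5 highest and 3 of the 5 lowest members remained under either other length. Sequence copies, coding length and starts within 5 bases were chosen after seeing the data. Genes with few counts at the locus, such as Rps27, Rpl29 and Rpl23a, limit what can be said of single members. No paired analysis was possible because the count columns carry numbers that run on through the series and are not shared between groups.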
